A study of Mus musculus with 6 samples.

Results

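Integrated stress response and amino acid synthesis genes are described here through 10 transcripts: Atf4, Ddit3, Asns, Chac1, Trib3, Psat1, Phgdh, Shmt2, Sesn2 and Slc7a11. They were taken by gene symbol from a table of 33682 gene rows. Each symbol occurred on 1 row, and all 10 were among the 12341 rows with a mean of at least 1 FPKM (fragments scaled to gene length and to library size) that were tested. RNA was sequenced from heart cells of neonatal rats that grew in conditioned medium, which is the supernatant of another culture. That supernatant came from bone marrow-derived mast cells that had been treated with TNF-alpha and were either wild type (WT medium, n = 3) or ALOX5-/- (Alox5KO medium, n = 3). ALOX5 encodes 5-lipoxygenase, which starts leukotriene synthesis. The sequenced cells themselves carry the genotype WT in both groups, and TNF-alpha treatment of the mast cells is also shared, so the groups differed in the genotype of the cells that made the medium. The comparison asks which transcripts of the recipient cells differ with that genotype; medium from untreated mast cells and cells without mast cell medium were not analysed here.

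The integrated stress response is set off when kinases that sense amino acid shortage, misfolded protein in the endoplasmic reticulum, haem shortage or double-stranded RNA phosphorylate the translation factor eIF2alpha. General translation then slows, while the mRNA of the transcription factor ATF4 is translated more efficiently through upstream reading frames in its leader. ATF4 induces genes for amino acid synthesis and uptake, and with its partner CHOP, the product of Ddit3, it induces genes linked to cell death and to the shut-off of the response. Because ATF4 is controlled in large part at translation, the level of its mRNA alone does not report its activity. In fibroblasts, serine and glycine synthesis feeds collagen, which is rich in glycine.

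A short DNA element to which ATF4 binds with C/EBP partners is a known feature of such genes. It is shown here because 4 of the 10 genes hold it near their start. Promoter sequence was not part of the rule that picked the 10 genes, but they were listed as genes of this response. Matches to this element are therefore no independent support. The rat genome was not used here, so the promoters are the mouse RefSeq sequences of build GRCm38.p6, from 250 bases before the start site to 50 from it, and all 10 genes matched by symbol. The letters TGATGNAA, on either strand, were found in the promoters of Asns, Chac1, Slc7a11 and Trib3, and in 3.97% of all 32851 promoters of this length. The strict form TGATGCAA, which is contained in the first, was found in Chac1 and Slc7a11, and in 0.895% of all promoters. Capitals mark the matches, and each sequence is written 5′ to 3′ on the strand of the gene.
Asns, chr6:7693210-7693269, minus strand, from position -60 to -1: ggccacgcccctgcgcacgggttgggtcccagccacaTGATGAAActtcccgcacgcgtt
Chac1, chr2:119351022-119351081, plus strand, from position -220 to -161: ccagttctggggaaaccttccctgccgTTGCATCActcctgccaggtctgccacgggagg
Slc7a11, chr3:50443634-50443703, minus strand, from position -90 to -21: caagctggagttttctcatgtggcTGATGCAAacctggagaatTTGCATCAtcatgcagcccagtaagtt
Trib3, chr2:152344031-152344060, minus strand, from position 1 to 30: agattagctcaggtTTACATCAgccgggcg
Slc7a11 held 2 matches in opposite orientation, and in Trib3 the match lay after the start site. A match is a description of letters in mouse DNA, not a measured binding site. Of these 4 genes, Chac1 alone passed the test for a difference between the media, described below with the values.

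The 6 libraries held between 13284088 and 15766187 reads on gene rows, recovered from the FPKM values. The library size used in the FPKM was between 0.990 and 1.03 times the library's own sum of these reads. The labels name the cells as cardiomyocytes and the design text names fibroblasts. Summed levels of 12 fibroblast markers ran from 10919 to 11673 FPKM in WT medium and from 9379 to 10192 in Alox5KO medium, whereas those of 11 cardiomyocyte markers found in the table ran from 29.6 to 53.5 and from 101 to 127 FPKM. Of the 12 fibroblast markers 4 fell and 2 rose, 33.3% and 16.7%, beside 10.6% and 10% of all tested genes. The matrix genes Dcn and Lum went from 2219 ± 711 to 134 ± 66.3 FPKM and from 150 ± 46.9 to 35.7 ± 16.3 FPKM, Fn1 from 1399 ± 339 to 644 ± 48.2 FPKM and the receptor Pdgfra from 80.6 ± 4.58 to 37.6 ± 4.36 FPKM, while Col3a1 rose from 1285 ± 201 to 2293 ± 186 FPKM and Tcf21 from 15.9 ± 3.91 to 25.9 ± 2.60 FPKM (SD, n = 3 each). Col1a1, the most abundant, was at 3290 ± 577 and 3741 ± 483 FPKM and did not pass the test. Myl2, the ventricular myosin light chain, was listed at 0 in every library. The smooth muscle and pericyte markers summed to between 58.4 and 78.0 FPKM in WT medium and to between 156 and 256 in Alox5KO medium. Of the 9 that were tested 6 rose and 2 fell, 66.7% and 22.2%, beside 10% and 10.6% of all tested genes. Among the rises, Notch3 had a mean of 0.864 FPKM in WT medium and entered the test only through Alox5KO medium. Cnn1, the most abundant smooth muscle and pericyte marker over all 6 samples, went from 12.7 ± 5.55 to 122 ± 44.2 FPKM. In WT medium Des and Kcnj8 were above Cnn1, at 24.1 ± 11.01 and 14.8 ± 3.99 FPKM, and in Alox5KO medium they were at 14.4 ± 4.57 and 3.39 ± 0.899 FPKM, of which the fall of Kcnj8 passed the test. Of 6 tested cardiomyocyte markers 4 rose and 0 fell, and the rises were 66.7% beside 10% of all tested genes. Among these rises, Myh7 and Pln had means of only 0.744 and 0.596 FPKM in WT medium. They entered the test only through their levels in Alox5KO medium, so that share is no support for a rise of the list. The other 5 matched cardiomyocyte markers averaged under 1 FPKM and were not tested. Tnnt2, the most abundant of the cardiomyocyte list, went from 23.0 ± 6.92 to 79.9 ± 10.6 FPKM (SD, n = 3 each). Endothelial and leukocyte markers each summed to less than 7 FPKM in every library, with Emcn, Cldn5, Cd163 and Cd3e at 0. Schwann cell and epicardial markers summed to between 22.2 and 29.9 FPKM in WT medium and to between 18.1 and 22.2 in Alox5KO medium. Wt1, the most abundant of these, was at 18.2 ± 1.02 and 17.2 ± 1.87 FPKM and did not pass the test. Msln, the other one tested, fell from 7.37 ± 2.96 to 1.52 ± 0.394 FPKM (SD, n = 3 each). Of 8 mast cell markers, Tpsb2, Ms4a2 and Fcer1a were listed at 0 throughout, while the protease Cpa3 went from 45.4 ± 7.69 to 19.6 ± 4.19 FPKM and Cma1, the other mast cell marker tested, was at 6.40 ± 1.32 and 6.35 ± 0.994 FPKM (SD, n = 3 each). The part of these marker changes in the results below was not tested, and fewer cells of a kind cannot be told apart from less RNA per cell in such samples. Nothing in the labels says that replicates came from separate cultures, so p-values rest on the spread between these 6 samples, and that spread may be technical.

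Shmt2 and Psat1, both enzymes of serine and glycine metabolism, fell in Alox5KO medium, Chac1 rose, and the other 7 genes did not pass the test. Among all tested genes 20.7% were called, 10% higher and 10.6% lower, so that 3 calls among 10 genes lie near the background and are no result about the group. The median log2 fold change of the 10 genes was -0.02, beside -0.00082 over all tested genes. Fold changes are on the scale of log2(FPKM + 1), Alox5KO medium minus WT medium, and every adjusted p is from limma with Benjamini-Hochberg adjustment over the 12341 genes at 0.05.

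**Figure D1:**
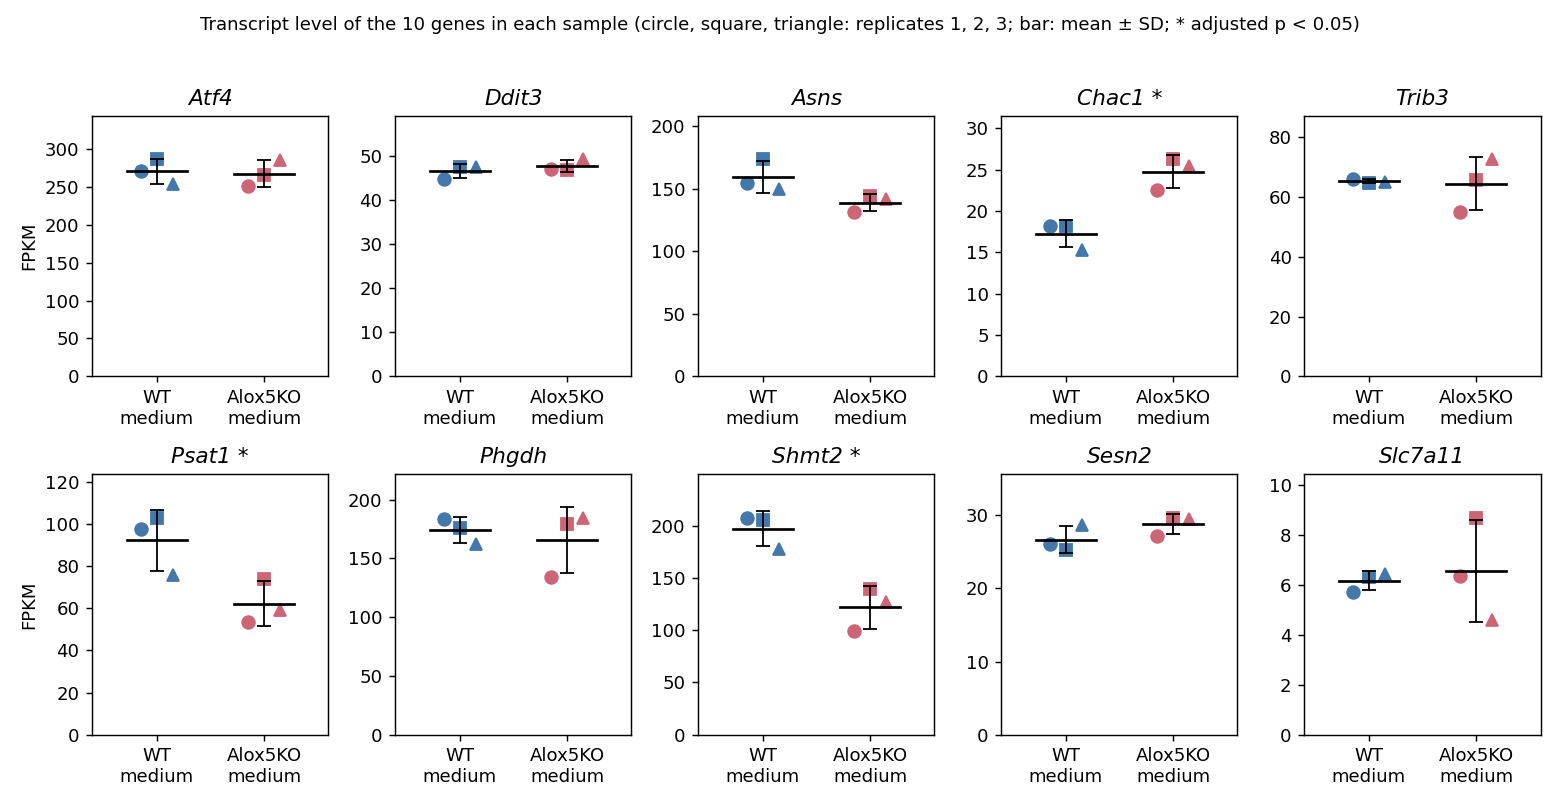
FPKM of each of the 10 genes in every sample, by medium, on axes that start at 0; circles, squares and triangles are replicates 1, 2 and 3, the black line is the mean and the error bar the SD (n = 3). The 3 samples in Alox5KO medium lie below all samples in WT medium for Asns, Psat1 and Shmt2 and above them for Chac1, and the groups overlap for the other 6 genes.

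Atf4, the central transcription factor of the response, was the most abundant of the 10 transcripts and had nearly the same level with either medium. It was measured at 271, 287 and 254 FPKM in WT medium and at 252, 266 and 286 FPKM in Alox5KO medium. The ranges overlapped almost completely. The log2 fold change was -0.02, with a 95% interval from -0.24 to 0.21 (limma adjusted p = 0.94). Its sign was not stable, reaching 0.07 with quantile normalization. In the table's coordinates, for which no rat build is named in the sources used here, Atf4 lies on chromosome 7 from 121480723 to 121482772.

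Ddit3 encodes CHOP, the transcription factor that acts with ATF4 in prolonged stress. Its values were 44.9, 47.6 and 47.6 FPKM in WT medium and 47.2, 47.0 and 49.3 FPKM in Alox5KO medium. All 6 samples lay within a narrow band, and the log2 fold change was 0.04 with a 95% interval from -0.16 to 0.23 (limma adjusted p = 0.82). Of the 10 genes it had the smallest spread within groups, an SD of 0.043 on the log2(FPKM + 1) scale. The row of Ddit3 (chromosome 7, 70580198 to 70585084) overlaps by 72 bases, on the opposite strand, with Mars, the methionyl-tRNA synthetase gene. The sources used here do not say if reads were counted by strand, so a few reads of that stretch could belong to either. Mars itself differed by -0.14 on the log2 scale and did not pass (limma adjusted p = 0.35).

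Trib3 is a pseudokinase induced by ATF4 and CHOP that restrains both ATF4 and AKT signalling. It was at 66.1, 64.7 and 65.0 FPKM in WT medium and at 55.0, 65.7 and 72.7 FPKM in Alox5KO medium. The WT-medium samples nearly coincided, and the Alox5KO-medium samples spread to both sides of them. On the log2 scale the difference was -0.03, with a 95% interval from -0.28 to 0.23 (limma adjusted p = 0.90). Sesn2, a leucine sensor that restrains mTORC1, was at 26.1, 25.2 and 28.7 FPKM in WT medium and at 27.2, 29.7 and 29.5 FPKM in Alox5KO medium. The groups overlapped through WT-medium replicate 3, with a log2 fold change of 0.11 and a 95% interval from -0.11 to 0.32 (limma adjusted p = 0.49).

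Chac1, which breaks down glutathione and is a late target of the ATF4 and CHOP branch, was the single member of the 10 to rise. It had 18.2, 18.2 and 15.3 FPKM in WT medium and 22.5, 26.3 and 25.5 FPKM in Alox5KO medium. Every Alox5KO-medium sample was above every WT-medium sample, as was so for 18.8% of all tested genes. A separation the other way round, shown by Asns, Psat1 and Shmt2, was found for 18.8%, or 37.6% in either direction. Means were 17.3 ± 1.66 and 24.8 ± 1.98 FPKM (SD, n = 3 each). The log2 fold change was 0.50 (SE 0.11; 95% interval 0.25 to 0.74; limma adjusted p = 0.011). Chac1 (chromosome 3, 111160205 to 111163425) had the fewest reads of the 10 genes, between 348 and 668 per library.

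Slc7a11 encodes xCT, the transporter that imports cystine in exchange for glutamate and so feeds glutathione synthesis. It was the least abundant of the 10, at 5.74, 6.32 and 6.44 FPKM in WT medium and 6.35, 8.71 and 4.61 FPKM in Alox5KO medium. Alox5KO-medium replicates 2 and 3 were the highest and lowest of all samples. On the log2 scale the difference was 0.04, with a 95% interval from -0.38 to 0.46 (limma adjusted p = 0.91), the widest interval of the 10. Without Alox5KO-medium replicate 2 it was -0.16 and without Alox5KO-medium replicate 3 it was 0.24. Its heavy chain partner Slc3a2, which carries xCT to the membrane, was at 185 ± 4.56 and 200 ± 12.4 FPKM (SD, n = 3 each) and did not pass the test either (limma adjusted p = 0.48).

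Asns, asparagine synthetase, is among the best known targets of ATF4. Its values were 155, 174 and 150 FPKM in WT medium and 131, 144 and 142 FPKM in Alox5KO medium. The groups did not overlap, but the gap between 144 and 150 FPKM was small against the spread within groups. The log2 fold change of -0.20 did not pass the test, with a 95% interval from -0.42 to 0.03 (limma adjusted p = 0.22).

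**Figure D2:**
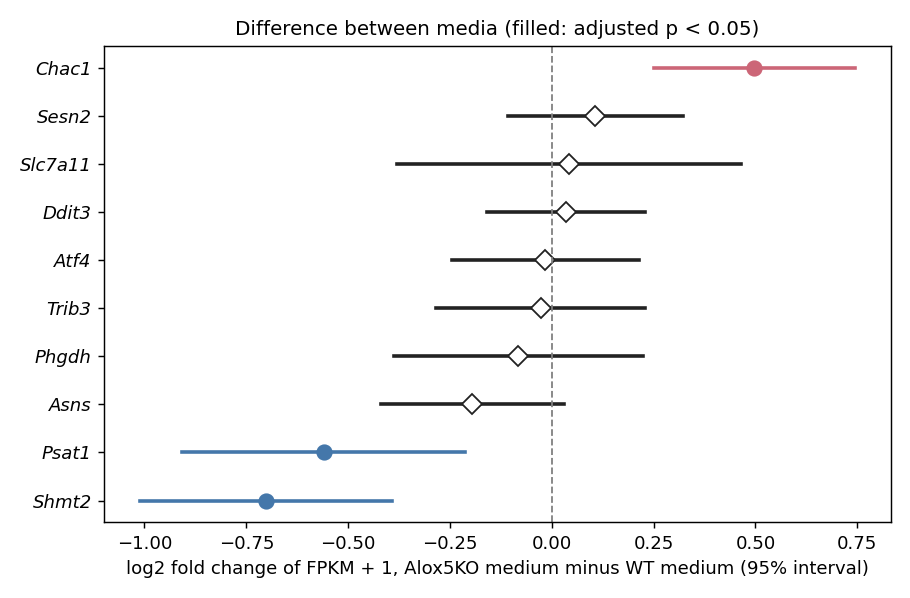
Log2 fold change of FPKM + 1 between Alox5KO medium and WT medium for each of the 10 genes, with its 95% interval from limma; filled circles passed the test and open diamonds did not. Shmt2 at -0.70 and Psat1 at -0.56 lie left of 0, Chac1 at 0.50 lies right of it, and the intervals of the other 7 genes include 0.

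The serine pathway starts with Phgdh, which oxidises 3-phosphoglycerate from glycolysis. Phgdh had 184, 176 and 162 FPKM in WT medium and 134, 179 and 185 FPKM in Alox5KO medium. Alox5KO-medium replicate 1 was the lowest sample, while the other two with that medium lay among or above the WT-medium samples. On the log2 scale the difference was -0.08, with a 95% interval from -0.39 to 0.22 (limma adjusted p = 0.73), and 0.07 without Alox5KO-medium replicate 1.

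Psat1 is the next enzyme, the transaminase that makes phosphoserine. It had 97.9, 103 and 75.9 FPKM in WT medium and 53.6, 74.2 and 59.2 FPKM in Alox5KO medium. The groups were apart, but WT-medium replicate 3 at 75.9 FPKM and Alox5KO-medium replicate 2 at 74.2 FPKM nearly met. Means were 92.3 ± 14.5 and 62.3 ± 10.7 FPKM (SD, n = 3 each), and the log2 fold change was -0.56 (SE 0.15; 95% interval -0.91 to -0.21; limma adjusted p = 0.031). The call on Psat1 was lost when a single library was left out, at adjusted p of 0.11 without WT-medium replicate 1, 0.10 without WT-medium replicate 2, 0.10 without Alox5KO-medium replicate 1 and 0.11 without Alox5KO-medium replicate 3 (limma). The fold change of Psat1 then lay between -0.53 and -0.46. Psat1 lies on chromosome 1 from 233124092 to 233145941, and the row of a related pseudogene had at most 0.960 FPKM.

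Shmt2 is the mitochondrial serine hydroxymethyltransferase, which splits serine into glycine and a one-carbon unit carried by folate. It had 208, 206 and 178 FPKM in WT medium and 99.6, 139 and 127 FPKM in Alox5KO medium. The groups were well apart, with the highest Alox5KO-medium sample at 139 FPKM and the lowest WT-medium sample at 178 FPKM. Means were 197 ± 16.6 and 122 ± 20.2 FPKM (SD, n = 3 each), 1.63-fold lower on the FPKM + 1 scale. The log2 fold change was -0.70 (SE 0.14; 95% interval -1.01 to -0.39; limma adjusted p = 0.0063). The call held in all 15 alternatives that were run, at between -0.80 and -0.56. Shmt2 (chromosome 7, 70824715 to 70829815) lies 239.6 kb from Ddit3 in the table's coordinates, and these neighbours had fold changes of -0.70 and 0.04.

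Because levels within a library share its scaling, pairs of genes were also compared inside each library, in 3 comparisons chosen after the values were seen. The log2(FPKM + 1) of Shmt2 minus that of Phgdh was 0.18, 0.23 and 0.13 in WT medium and -0.42, -0.36 and -0.54 in Alox5KO medium. Shmt2 thus exceeded Phgdh in each WT-medium library and was below it in each Alox5KO-medium library. Psat1 minus Phgdh was -0.90, -0.76 and -1.09 in WT medium and -1.30, -1.26 and -1.63 in Alox5KO medium. Both groups of values were apart, and each comparison had an exact two-sided permutation p of 0.10 (n = 3 per group), or 0.10 after Benjamini-Hochberg adjustment over the 3, which is the smallest p that 3 samples against 3 can give. The third comparison, of Shmt2 with its cytosolic counterpart Shmt1, went from 4.46 ± 0.22 to 3.27 ± 0.18 (SD, n = 3 each) on the same log2 scale, also with an exact permutation p of 0.10. As the pairs were chosen with their values seen, these p-values are no support for a difference.

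This list and those described below were chosen with earlier results of these data known, so their shares are descriptions and no independent support. Other enzymes of serine, glycine and folate metabolism had negative fold changes in 12 of 15 tested genes. Of the 15, 5 fell, 1 rose and 9 did not pass, with a median log2 fold change of -0.32. The 5 falls were 33.3% and the 1 rise 6.67% of the tested genes of that list, beside 10.6% and 10% of all tested genes. There were 2 falls when replicate 1 or 2 of WT medium, or replicate 1 or 3 of Alox5KO medium, was left out. Shmt1, the cytosolic isoenzyme, was the gene that rose, from 8.01 ± 0.604 to 11.7 ± 0.789 FPKM (SD, n = 3 each), which is a log2 difference of 0.49 (limma adjusted p = 0.011), with an adjusted p of 0.061 without WT-medium replicate 1, where that list had 0 rises. Aldh1l1, a cytosolic folate dehydrogenase, fell from 3.83 ± 1.49 to 1.32 ± 0.289 FPKM (SD, n = 3 each), and Mthfd2l, a mitochondrial folate dehydrogenase, from 3.49 ± 0.408 to 1.802 ± 0.0195 FPKM (SD, n = 3 each). Gcsh, the H protein of glycine cleavage, fell by 0.35 on the log2 scale, a call that was lost in 5 of the 6 fits that left out a library. Psph, which completes serine synthesis, and Mthfd2, the abundant mitochondrial folate dehydrogenase and a known ATF4 target, had fold changes of -0.24 and -0.06 on the log2 scale and did not pass.

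**Figure D3:**
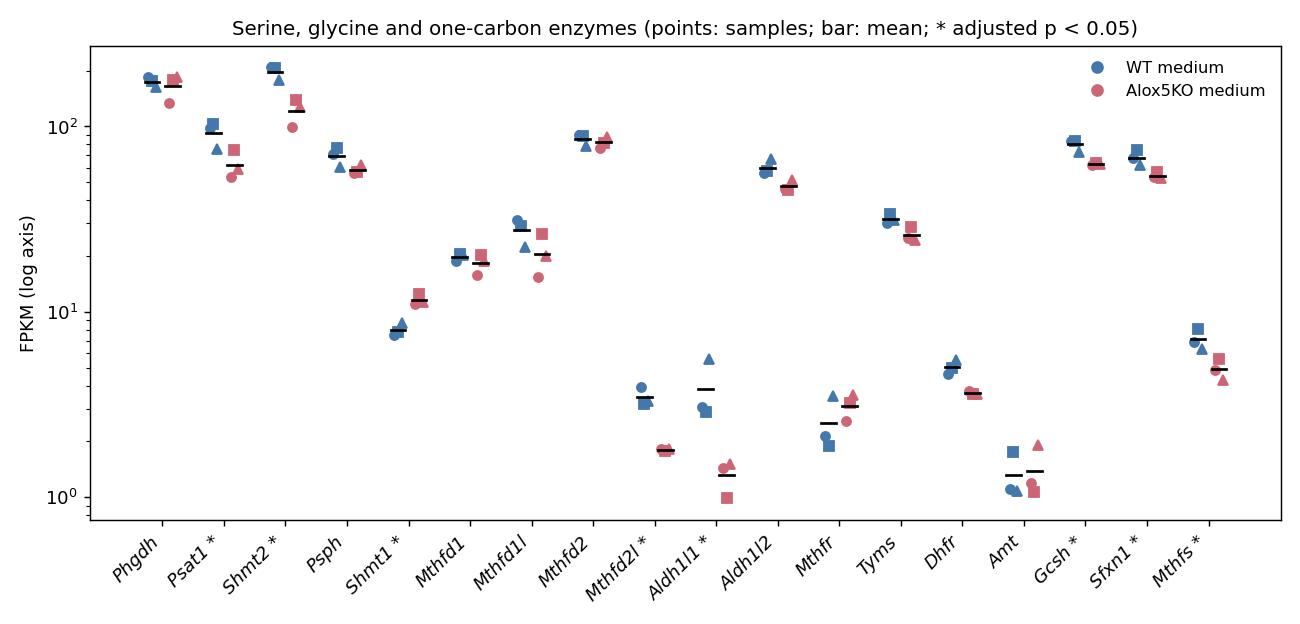
FPKM on a log axis of the serine, glycine and one-carbon enzymes in each sample, blue for WT medium and red for Alox5KO medium, with replicates 1, 2 and 3 as circles, squares and triangles and the mean as a black bar; an asterisk marks genes past the test. Shmt2 and Psat1 are lower in Alox5KO medium, Shmt1 is higher, and Phgdh, Psph and Mthfd2 overlap between the media.

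The order of the levels, which FPKM allows because it is scaled to gene length, changed in the middle of the list. With WT medium it ran Atf4, Shmt2, Phgdh, Asns, Psat1, Trib3, Ddit3, Sesn2, Chac1 and Slc7a11, from 271 down to 6.17 FPKM. Shmt2 overlapped with Phgdh and Phgdh with Asns, and the other neighbours in that order were apart. With Alox5KO medium Shmt2 stood after Phgdh and Asns, and Psat1 after Trib3. There Phgdh overlapped with Asns, Asns with Shmt2, and Trib3 with Psat1. Slc7a11 was above 35.8% of the tested genes by its mean over all 6 samples, and Atf4 above 97.6%.

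By the root mean square distance between centred log2(FPKM + 1) profiles over the 6 samples, the tested protein-coding genes most like Shmt2 were Slc1a5, AABR07052523.1 and Ahcy, at distances of 0.047, 0.055 and 0.056. Slc1a5, a glutamine transporter, went from 98.3 ± 8.60 to 63.9 ± 10.04 FPKM (SD, n = 3 each), and Ahcy, an enzyme of the methionine cycle, from 91.4 ± 5.64 to 59.8 ± 8.67 FPKM (SD, n = 3 each). Among those most like Asns were Jpt2 and Trmt10a, at 0.024 and 0.028, and their own fold changes did not pass the test. These are likenesses over 6 samples in 2 groups and carry no test.

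Upstream of ATF4 lies the eIF2alpha machinery. Of its 16 tested kinases, phosphatase subunits and eIF2 or eIF2B subunits, 2 rose and 0 fell by limma, and the median log2 fold change was 0.05. The rises were 12.5% of the list, near the 10% of all tested genes. At an unadjusted p under 0.05 the falls numbered 1 and by voom on recovered reads 0. That gene is Ppp1r15a, the stress-induced phosphatase subunit GADD34. Ppp1r15a had 37.4, 32.8 and 33.8 FPKM in WT medium and 23.4, 25.6 and 31.7 FPKM in Alox5KO medium, groups that did not overlap, and a log2 fold change of -0.36 (unadjusted p = 0.017, limma adjusted p = 0.072). Without Alox5KO-medium replicate 3 Ppp1r15a passed the test, at -0.48 and an adjusted p of 0.022 (limma). The kinase PERK of the endoplasmic reticulum, Eif2ak3, was at 8.09 ± 0.901 and 7.63 ± 0.120 FPKM, and the amino acid sensor GCN2, Eif2ak4, at 2.21 ± 0.187 and 2.26 ± 0.150 FPKM (SD, n = 3 each). The kinase that rose was Eif2ak2, which encodes PKR and is known as an interferon-induced gene. It went from 9.94 ± 0.429 to 19.8 ± 3.70 FPKM (SD, n = 3 each), which is a log2 difference of 0.91 (limma adjusted p = 0.0014). Impact, an inhibitor of GCN2 activation, rose by 0.46 on the log2 scale (limma adjusted p = 0.013).

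A list of other genes known as targets of ATF4 or CHOP held more falls than rises. Of 16 tested, 8 fell, 2 rose and 6 did not pass, with a median log2 fold change of -0.27. The 2 rises were 12.5% of the list, near the 10% of all tested genes. The 8 falls were 50.0% of the list, beside 10.6% of all tested genes. They numbered 2 without WT-medium replicate 1, and 4 when replicate 2 or 3 of WT medium, or replicate 1 or 3 of Alox5KO medium, was left out. There was 1 rise when replicate 1 or 2 of WT medium, or replicate 2 or 3 of Alox5KO medium, was left out. Several of these genes also answer to other signals, such as inflammatory cytokines or hypoxia.

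Atf3, a stress-induced repressor, had 7.70, 6.40 and 6.07 FPKM in WT medium and 3.29, 2.46 and 2.72 FPKM in Alox5KO medium, a log2 fold change of -1.01 (limma adjusted p = 0.0010). Ddit4, an inhibitor of mTORC1 that hypoxia and glucocorticoids also induce, fell from 123 ± 12.8 to 77.0 ± 3.95 FPKM (SD, n = 3 each). Cebpb, a partner of ATF4 that is also an inflammatory transcription factor, had 336, 222 and 281 FPKM in WT medium and 78.6, 140 and 141 FPKM in Alox5KO medium. Its log2 fold change was -1.25 (limma adjusted p = 0.017), and the call on Cebpb was lost without WT-medium replicate 1 or 3, at limma adjusted p of 0.051 and 0.066.

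Vldlr and Atf5 were the targets that rose. Vldlr, a lipoprotein receptor, went from 33.6 ± 1.47 to 71.4 ± 11.3 FPKM (SD, n = 3 each), which is a log2 difference of 1.05 (limma adjusted p = 4.5e-04). Atf5, which is translated under stress in the manner of Atf4, had 383, 357 and 404 FPKM in WT medium and 464, 501 and 618 FPKM in Alox5KO medium. The log2 fold change of Atf5 was 0.46 (limma adjusted p = 0.033), and the adjusted p was 0.10 and 0.12 when replicate 1 and 2 of WT medium were left out in turn, and 0.058 and 0.10 for replicate 2 and 3 of Alox5KO medium.

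**Figure D4:**
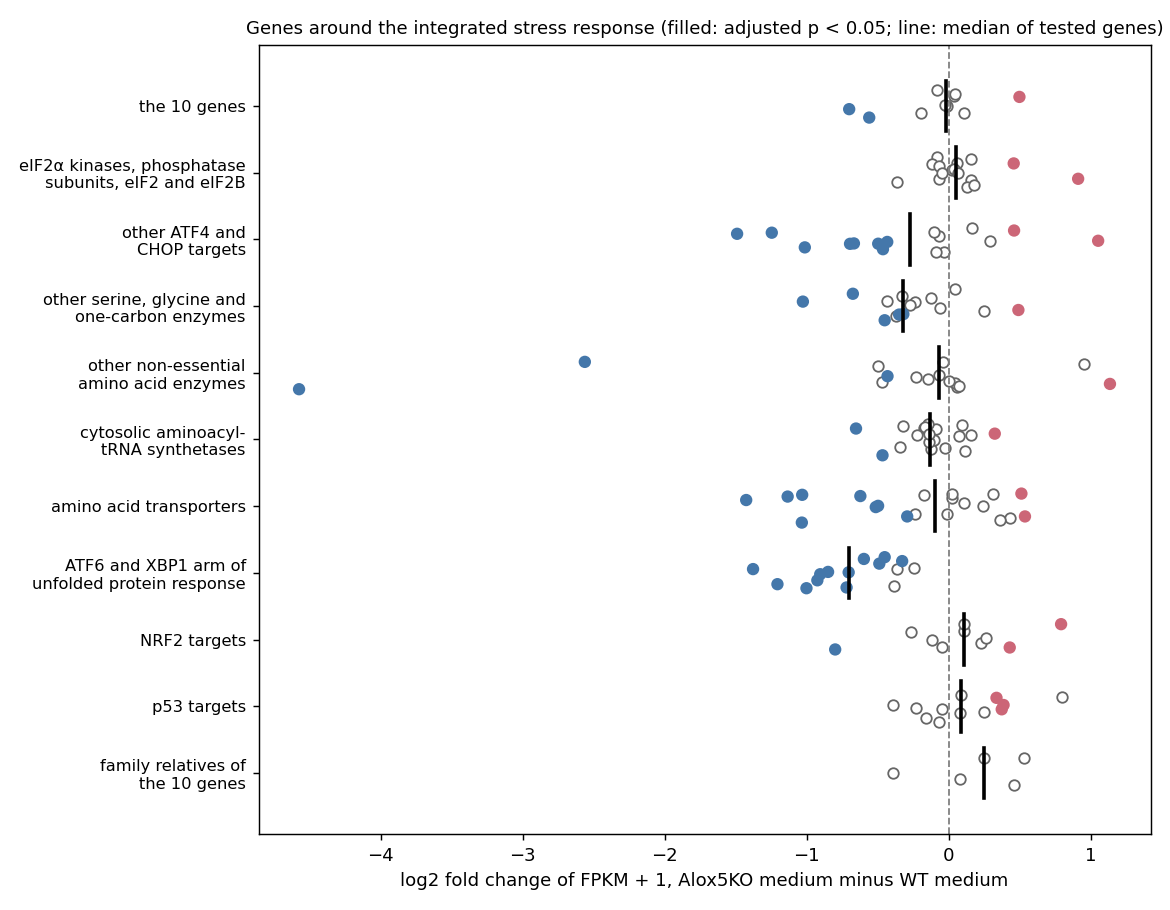
Log2 fold change of FPKM + 1 between Alox5KO medium and WT medium for each tested gene of the 10 and of the surrounding lists, 1 list per row; filled points passed the test (blue lower, red higher), open points did not, and the black line is the list's median. The 10 genes centre on -0.02 and the ATF6 and XBP1 list on -0.71.

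Genes of the ATF6 and XBP1 arm of the unfolded protein response, mainly chaperones of the endoplasmic reticulum, fell in most cases. Of 15 tested genes in that list 12 fell and 0 rose by limma, 0 rose at an unadjusted p under 0.05 or by voom, and the median log2 fold change was -0.71. That is 80.0% of the list beside 10.6% of all tested genes, and the number of falls ran from 10 to 11 with 1 library left out. Hspa5, the chaperone BiP, had 750, 800 and 625 FPKM in WT medium and 351, 407 and 381 FPKM in Alox5KO medium, with no overlap. Its log2 fold change was -0.93 (limma adjusted p = 8.3e-04). Sdf2l1, Hsp90b1, Pdia4 and Calr, which act in folding and quality control of secreted proteins, fell by 1.38, 1.21, 1.00 and 0.85 on the log2 scale. Ddit3, which this branch can also induce, stayed within 44.9 to 49.3 FPKM in the same libraries. Whether the fold changes of Ddit3 and of the chaperones differ was not tested.

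Many aminoacyl-tRNA synthetases are known ATF4 targets. Of 20 cytosolic synthetases tested, 2 fell and 1 rose, and the median was -0.14 on the log2 scale. The falls were 10% and the rises 5% of the list, near or below the 10.6% and 10% of all tested genes. Tars, for threonine, fell from 135 ± 7.33 to 85.8 ± 7.49 FPKM (SD, n = 3 each) and Qars, for glutamine, from 87.4 ± 1.94 to 62.9 ± 0.195 FPKM (SD, n = 3 each). Rars, for arginine, rose by 0.32 on the log2 scale, a call that was lost in each fit that left out a library, and the falls numbered 4 without Alox5KO-medium replicate 2.

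Among amino acid transporters 8 of 20 tested fell and 2 rose. The list's median was -0.09 on the log2 scale. The falls were 40.0% and the rises 10% of the list, beside 10.6% and 10% of all tested genes. Falls numbered 6 or 7 with 1 library left out, and 7 by voom on recovered reads. Rises came to 0 without WT-medium replicate 1 and to 1 without Alox5KO-medium replicate 3. Slc1a1 and Slc1a3, glutamate transporters, went from 2.33 ± 0.286 to 0.243 ± 0.184 FPKM and from 14.7 ± 1.06 to 6.19 ± 1.19 FPKM (SD, n = 3 each). Slc1a1 entered the test only through its level in WT medium and had as few as 5 reads in a library. Its place among the falls is therefore no support. Slc7a2, a carrier of arginine and lysine, and Slc43a2, a carrier of large neutral amino acids, fell by 1.03 each on the log2 scale. The rises were Slc1a4, a carrier of small neutral amino acids, from 24.8 ± 0.393 to 36.7 ± 6.01 FPKM, and Slc38a7, a lysosomal glutamine carrier, from 8.18 ± 0.700 to 12.1 ± 0.945 FPKM (SD, n = 3 each).

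Ass1 and Glul, outside the serine pathway, had larger differences than any of the 10 genes. Of 15 other tested enzymes of non-essential amino acids 3 fell, 1 rose and 11 did not pass, with a median log2 fold change of -0.07. The falls were 20.0% and the rises 6.67% of the list, beside 10.6% and 10% of all tested genes. Ass1, argininosuccinate synthase, which rebuilds arginine from citrulline, had 104, 99.7 and 112 FPKM in WT medium and 3.55, 2.82 and 4.04 FPKM in Alox5KO medium. Its log2 fold change was -4.58 (SE 0.12; limma adjusted p = 2.2e-07). Glul, glutamine synthetase, fell from 264 ± 43.2 to 44.0 ± 8.89 FPKM (SD, n = 3 each). Oat, ornithine aminotransferase, fell by 0.43 on the log2 scale (limma adjusted p = 0.020), and its adjusted p was between 0.054 and 0.098 in 4 of the 6 fits that left out a library.

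Slc7a11 and Sesn2 also answer to NRF2 and p53, so targets of both were read beside them. Of 10 tested NRF2 genes 2 rose and 1 fell, near the 10% and 10.6% of all tested genes for so short a list, and the median was 0.11 on the log2 scale. The quinone reductase Nqo1 fell from 65.6 ± 9.99 to 37.0 ± 0.513 FPKM, and the malic enzyme Me1 rose from 41.0 ± 4.41 to 71.6 ± 6.995 FPKM (SD, n = 3 each). Hmox1, haem oxygenase, rose by 0.43 on the log2 scale, with adjusted p of 0.090 and 0.064 when replicate 2 and 3 of WT medium were left out in turn, and 0.077 for replicate 3 of Alox5KO medium, each of which left 1 rise in the list. Nfe2l2, which encodes NRF2, differed by 0.22 on the log2 scale and did not pass (limma adjusted p = 0.12).

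Of 12 tested p53 genes 3 rose and 0 fell by limma. At an unadjusted p under 0.05 there were 4 rises and 1 fall, and by voom also 4 rises and 1 fall. The 3 rises by limma were 25% of the list, beside 10% of all tested genes, and the median log2 fold change was 0.08. Phlda3, Mdm2 and Ccng1 rose by between 0.34 and 0.39 on the log2 scale. There were 0 rises when replicate 1 or 2 of WT medium, or replicate 3 of Alox5KO medium, was left out, and 1 when replicate 1 of Alox5KO medium was. Without replicate 3 of WT medium or replicate 2 of Alox5KO medium there were 2, so the count of 3 held in no such fit. Of 5 tested family relatives of the 10 genes 0 were called by limma, while 2 were higher and 1 lower at an unadjusted p under 0.05 and also by voom. The sestrin relatives of Sesn2 were among those that did not pass, Sesn1 at 5.49 ± 0.483 and 3.93 ± 0.315 FPKM and Sesn3 at 2.82 ± 0.986 and 4.38 ± 0.194 FPKM (SD, n = 3 each). Their log2 fold changes were -0.39 and 0.53, with limma adjusted p of 0.051 and 0.081, and Sesn3 passed without WT-medium replicate 3, at 0.72 and an adjusted p of 0.015.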

How the data were processed

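RNA was extracted with TRIzol and sequenced from NEBNext Ultra libraries, per the labels' protocols. The aligner HISAT2 2.0.5 and the counter featureCounts 1.5.0-p3 appear, with CASAVA 1.8, fastp and DESeq2 1.20.0 and with mm10 as the build, in the submitters' processing notes, which give no roles. The table holds 32883 rat Ensembl identifiers, 0 mouse ones and 799 unannotated loci, although the labels give the organism as mouse. The authors deposited FPKM values, 1 column per sample, with gene lengths and positions, per the file headers. Reads were recovered from FPKM times gene length, since each column moves in steps of 1 read: 100% of 100854 non-zero values came out whole to within 0.05 reads.

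Rows averaging 1 FPKM or more across the 6 samples entered limma 3.58.1 in R 4.3.3 (mean-variance trend, robust prior, two-sided) on log2(FPKM + 1). Symbols were matched in any case, and of repeated symbols the most abundant row was kept. Named genes are the 10, up to 4 called genes with the smallest p per list, a set list of regulators and relatives, the nearest profiles and the most abundant markers, with Mars added for its overlap and further markers and transporters named after their values were seen. The 10 genes and the lists were chosen with earlier results of these data known. Alternatives were other pseudocounts, filters, scalings and variance models, a replicate block and each library left out. Some genes that this rule names are not reported here.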

Additional observations from a re-analysis of the deposited data

How the results depend on the processing

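The call counts of the 10 genes depended on Psat1. With all rows tested unfiltered, and by limma without trend and robust prior, 1 of the 10 fell in place of 2, as Psat1 had adjusted p of 0.077 and 0.056 (limma, Benjamini-Hochberg). With 1 library left out the falls ran from 1 to 2. The rise of Chac1 and the fall of Shmt2 held in all 15 alternatives. Over all tested genes the rises ran from 791 (without WT-medium replicate 1) to 1226 and the falls from 862 (without WT-medium replicate 1) to 1325 with 1 library left out. Fold changes near 0 changed sign. Atf4 was at 0.066 with quantile normalization, 0.044 with TPM scaling, 0.011 with voom on the recovered reads (an alternative added after seeing the data), and from -0.064 to 0.028 with 1 library left out. Trib3 was at 0.015 with quantile normalization, 0.032 with TPM scaling, and from -0.117 to 0.080 with 1 library left out. With 1 library left out Phgdh ran from -0.166 to 0.065, Slc7a11 from -0.157 to 0.238, Eif2ak3 from -0.135 to 0.006, and Eif2ak4 from -0.024 to 0.059. TPM scaling moved the median of all genes to 0.055, and it left 5 falls among the other ATF4 and CHOP targets. The replicate numbers are shared by the groups. Deviations of same-numbered samples correlated at -0.096, 0.105 and 0.167, and those of differently numbered samples at between -0.192 and 0.101. These values do not settle pairing, and the labels name no shared culture or day, so the main fit used no pairing. With the replicate block 1277 genes rose and 1375 fell, with 1 rise and 2 falls among the 10, and the calls on Cebpb (adjusted p = 0.086), Rars (0.055) and Ccng1 (0.066; limma, Benjamini-Hochberg) were lost. The planned edgeR and DESeq2 fits were not run, since the deposited values are FPKM.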

Other observations

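Which library was lowest within its group was counted over the 10 genes. With Alox5KO medium, replicate 1 was the lowest of the 3 for 8 of the 10 genes, all but Ddit3 and Slc7a11, and the highest for 0. Over all tested genes that library was the lowest for 34.6%. With WT medium, replicate 3 was the lowest for 6 of the 10, namely Atf4, Asns, Chac1, Psat1, Phgdh and Shmt2, beside 39.5% of all tested genes. That library was the highest for Sesn2 and Slc7a11. These counts carry no test, since the 10 genes of a library are not independent.

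The letters TGACNNNGC of the NRF2 element, on either strand, were found in the mouse promoters of Asns, Phgdh and Sesn2 and in 12.4% of all 32851 promoters. They were not in the window of Slc7a11, from which nothing follows about that factor.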
